A study of Mus musculus with 17 samples.

Results

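Livers labelled Nampt +/- (called Het) were compared with livers labelled Nampt +/+ (called WT) 24 h after saline, the arm without drug of a study whose title asks about Nampt in liver injury by acetaminophen (APAP). The libraries were chosen by their labels: 2 Het and 3 WT saline libraries, 5 of the 17 in the series. All came from male C57BL/6 mice. Both Het livers were perfused, were run in lane 8 and came from mice of 11 weeks. WT saline 1 and 2 were perfused, were run in lane 7 and came from mice of 12 weeks. WT saline 3 was not perfused, was run in lane 6 and came from a mouse of 11 weeks. Het and WT saline livers thus shared no lane, so genotype label and lane cannot be told apart in these 5 libraries, and among the 4 perfused livers neither can genotype label and age. How the +/- allele was made, and in which cells it acts, is not given in the sources used here. A WT library whose saline was labelled IG (lane 6, not perfused, 11 weeks) and 2 saline libraries labelled OE, a label not spelled out, served only as checks. OE saline 1 (lane 8, perfused) and OE saline 2 (lane 4, not perfused) both came from mice of 11 weeks. A later comparison used 2 Het and 3 WT livers taken 24 h after APAP at 200 mg/kg, all of lane 5, not perfused, from mice of 11 weeks. The fit of 17 libraries and the counts over the whole series also held 4 more livers taken 24 h after APAP. They were Het APAP 1 (200 mg/kg, lane 8, perfused, 11 weeks), OE APAP 1 (200 mg/kg, lane 4, not perfused, 11 weeks), OE APAP 2 (200 mg/kg, lane 8, perfused, 12 weeks) and an OE liver at 300 mg/kg (lane 4, not perfused, 12 weeks). Replicate numbers follow the order of deposit and are only names. No label says whether each library of a group is another animal, so the p-values reflect spread among libraries and that spread may be technical.

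Nampt makes nicotinamide mononucleotide from nicotinamide and limits the salvage route to NAD, the coenzyme of most redox steps in fuel use and the substrate of sirtuins and PARPs. The liver can also make NAD from tryptophan and from nicotinic acid. It switches between making fat from sugar, driven by the transcription factors Srebf1 and Mlxipl, and burning fat under Ppara, and both programmes respond to feeding and fasting.

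Values are FPKM, that is sequenced fragments corrected for gene length and library size. Of 46073 genes, 10767 averaged 1 FPKM or more in the 5 libraries once 114 genes with failed estimates were set aside. Relative to WT saline 1, the depth read from the steps between low values was 0.841 and 1.37 in Het saline 1 and 2, 0.998 and 1.19 in WT saline 2 and 3, and 1.26 in the IG library. The 16 hepatocyte markers, of which 15 were tested, summed to 39667 to 41641 FPKM in the Het-labelled and 38910 to 40416 FPKM in the WT libraries, while Alb, one of them, was listed at 0 throughout. OE saline 2 stood apart from the other saline libraries, with heat shock genes 1.90 higher (mean difference in log2(FPKM + 1)) than in the WT mean.

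The targeted gene did not follow the label. Nampt (chr12:32819545-32853349, plus strand, GRCm38) was at 26.0 and 23.0 FPKM in Het saline 1 and 2, and at 18.0, 15.3 and 18.0 FPKM in WT saline 1 to 3. Both Het-labelled livers were above all 3 WT livers, and the IG library (23.4 FPKM) lay between the Het values. OE saline 1 and 2 were at 22.4 and 27.2 FPKM. The difference was 0.57 ± 0.25 (SE, log2 scale, 95% interval 0.04 to 1.11), with an adjusted p of 0.373 in limma over all 17 libraries and of 0.0928 in limma over the 4 perfused livers. After APAP the Het-labelled livers held 15.4, 11.3 and 15.2 FPKM and the WT livers 12.0, 10.9 and 16.7 FPKM, and these overlapped. A value for the whole gene does not show which allele the RNA came from. Since Nampt RNA was not lower in the libraries labelled Het, they are called Het-labelled throughout, and every direction rests on that label.

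Only 5 of the 10767 genes passed at a false discovery rate of 0.05 when limma took its spread from all 17 libraries (0.0464%), 3 higher (0.0279%) and 2 lower (0.0186%) in the Het-labelled livers. An unadjusted p under 0.05 was reached by 1334 genes. Within the 4 perfused livers, 297 of 10763 genes passed (2.76%), 135 higher (1.25%) and 162 lower (1.51%), among them all 5. This second count rests on 2 livers a group. Leaving out 1 liver gave 97 genes without Het saline 1, 53 without Het saline 2, 13 without WT saline 1 and 37 without WT saline 2, and 7 of the 297 genes passed in each of these 4 fits. All 297 kept their direction in those fits. Each fit held 3 of the 4 livers that picked these genes, so their direction was largely set in advance. In 285 of the 297 genes the 2 Het-labelled values lay outside the range of all 3 WT values. The same held for 4317 of 10767 genes tested (40.1%, with 20.8% higher and 19.3% lower). The 4 livers that picked the 297 genes are among these 5 libraries, so the count of 285 was largely set by that choice. In the text below, "passed" refers to the 4 perfused livers unless the 17 libraries are named, and differences are on the log2(FPKM + 1) scale, which understates the change of low genes.

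**Figure D1:**
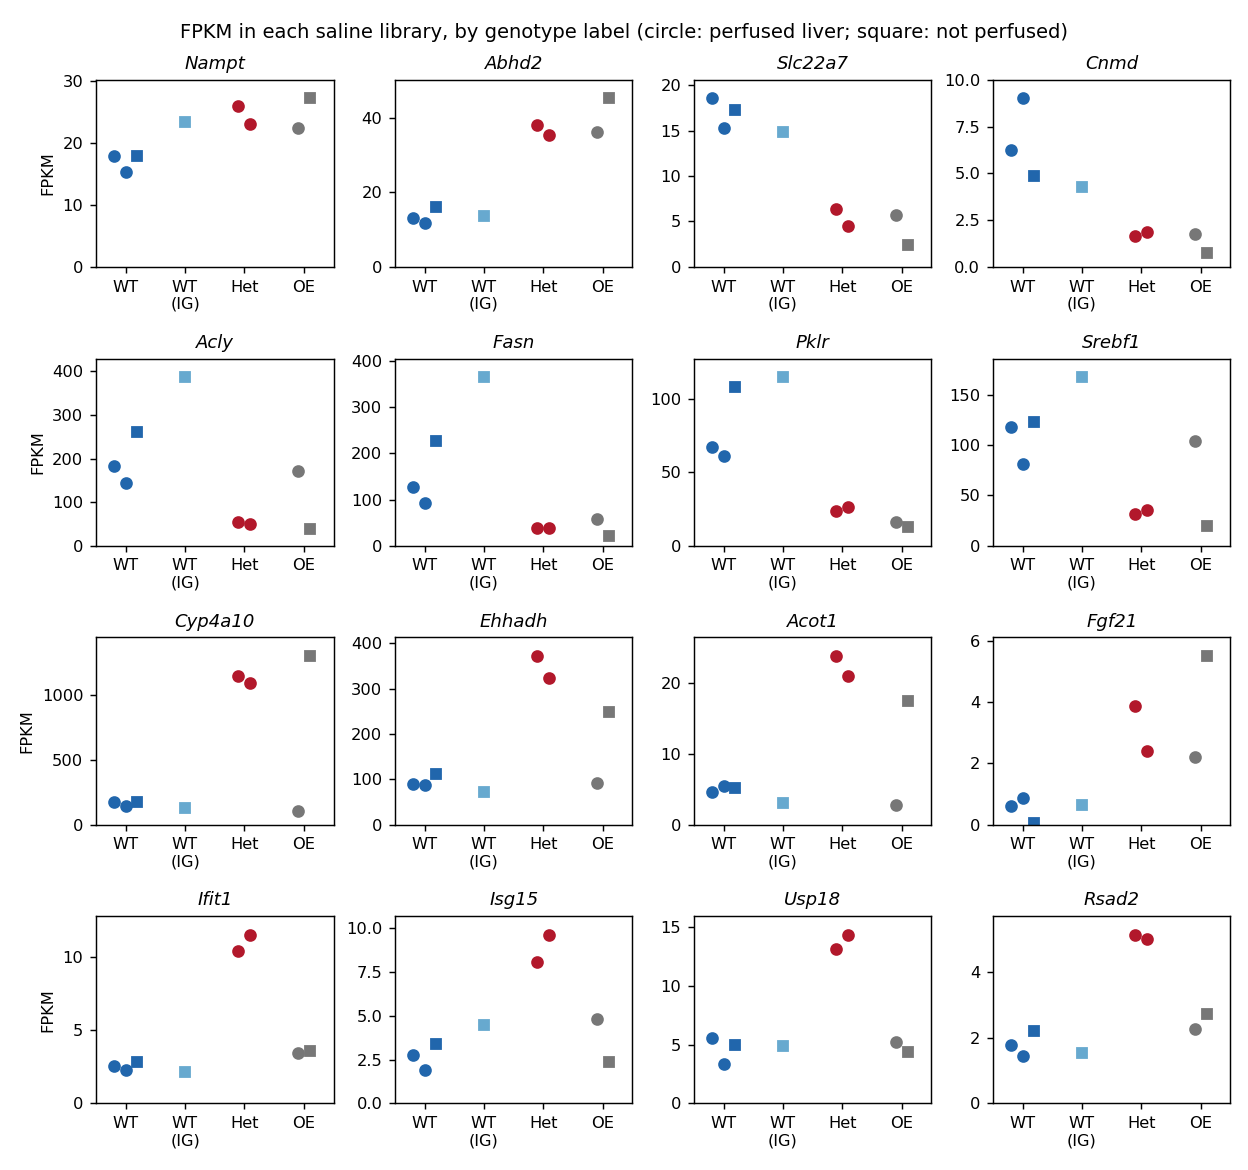
FPKM (y axis, from 0) of 16 genes in each saline library, grouped by genotype label (x axis), with 1 point per library, circles for perfused and squares for non-perfused livers. Het points lie apart from the 3 WT points in every panel, and OE saline 2 (the grey square) sits with the Het points in Cyp4a10 (1300 FPKM) but not in Ifit1 (3.54 FPKM).

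Of the 5 genes that passed in both tests, 3 code for proteins. Abhd2, a lipid hydrolase of the alpha/beta hydrolase family (chr7:79273199-79365508), was at 38.2 and 35.4 FPKM in the Het-labelled livers and at 13.0, 11.8 and 15.9 FPKM in the WT livers. The groups were far apart (1.51 ± 0.20, adjusted p = 0.0155 over 17 libraries), and OE saline 1 and 2 were as high as the Het-labelled livers (36.1 and 45.2 FPKM). Slc22a7, the organic anion transporter OAT2 (chr17:46432183-46438457), was at 6.40 and 4.55 FPKM against 18.6, 15.3 and 17.3 FPKM. Both Het-labelled livers were low (-1.64 ± 0.22, adjusted p = 0.0155), as were OE saline 1 and 2 (5.75 and 2.41 FPKM). Cnmd, which codes for chondromodulin (chr14:79637690-79662170), was at 1.67 and 1.85 FPKM against 6.26, 9.0 and 4.83 FPKM, and again did not overlap (-1.57 ± 0.21, adjusted p = 0.0155). OE saline 1 and 2 were low here as well (1.76 and 0.734 FPKM). The IG library was at 13.6, 14.9 and 4.25 FPKM for Abhd2, Slc22a7 and Cnmd, and was nearer the WT than the Het mean in all 5 genes. With 1 of the 5 libraries left out of the fit of 17, Abhd2 passed in no case, Slc22a7 passed only without WT saline 2 or 3, and Cnmd passed only without WT saline 3. The other 2 genes, Gm6472 and Gm22611, passed in each case. Gm22611, an annotated small nuclear RNA (chr11:76974086-76974235), was listed at 0 in the 3 WT libraries and at 4.58 and 5.68 FPKM in the Het-labelled ones. So short a gene is poorly measured by FPKM, and a 0 throughout a group can be a failed estimate.

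Gm6472, a processed pseudogene on the minus strand of chrX:152909505-152910155, marked the Het label in the whole series. It was at 13.6 and 18.7 FPKM in the Het-labelled saline livers and at 2.09, 1.13 and 2.05 FPKM in the WT saline livers (2.68 ± 0.27, adjusted p = 0.00150 over 17 libraries). After APAP the Het-labelled livers held 22.0, 40.3 and 22.4 FPKM and the WT livers 1.68, 1.23 and 2.03 FPKM. The 5 Het-labelled libraries, of lanes 5 and 8, were all above the other 12, whose range was 1.13 to 3.27 FPKM. Its 582-base transcript matched the coding sequence of Rps7, a protein of the small ribosomal subunit, at all but 3 positions (99.5% identity). Those 3 stretches are shown because, within the matched part, only they can tell reads of the pseudogene from reads of Rps7. They are named by the change from Rps7 to Gm6472, counted from 1 at the start of the Rps7 transcript, whose coding part runs from 108 to 689, with the differing base in capitals.
T133G, Rps7: gagcgccaagatcgTgaagcccaatggcg
T133G, Gm6472: gagcgccaagatcgGgaagcccaatggcg
G155A, Rps7: aatggcgagaagccGgacgagttcgagtc
G155A, Gm6472: aatggcgagaagccAgacgagttcgagtc
G230T, Rps7: aaggcgcagctgcgGgaactcaacatcac
G230T, Gm6472: aaggcgcagctgcgTgaactcaacatcac
Fragments that cover none of these bases fit both genes, so the split between them is uncertain. Rps7 itself ranged from 186 to 392 FPKM in the 5 Het-labelled libraries (median 235) and from 192 to 238 FPKM in the 7 WT libraries (median 211), and these overlapped. None of the 7 other loci with at least 90% identity over 500 bases separated the Het-labelled libraries upwards from the rest. Rps7 lies on chr12:28630854-28635953, 4.18 Mb from Nampt.

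**Figure D2:**
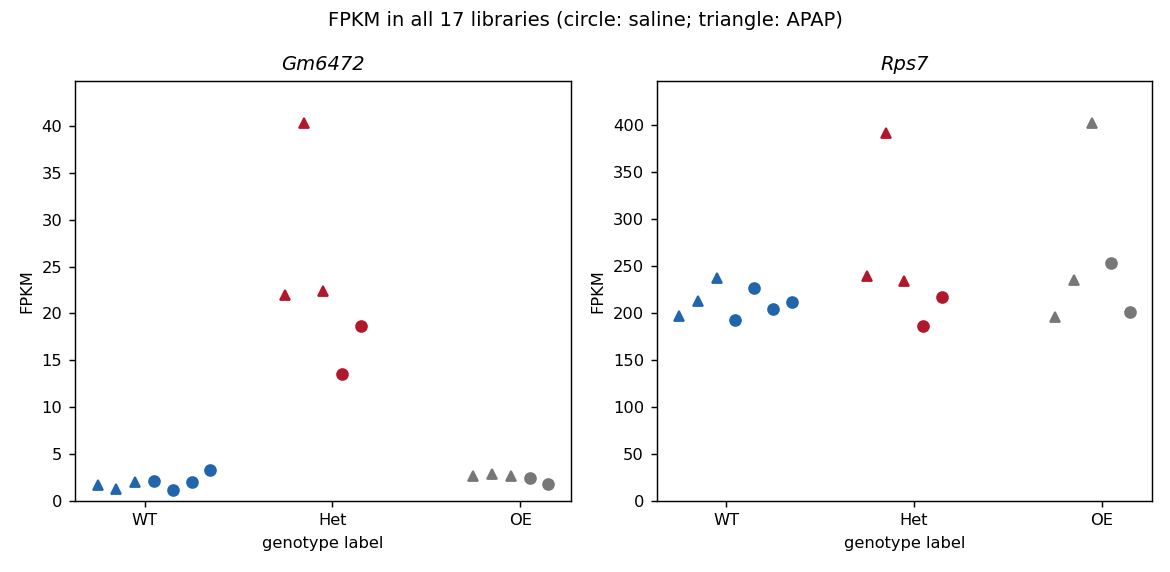
FPKM (y axes, from 0) of Gm6472 and Rps7 in all 17 libraries by genotype label (x axis), circles for saline and triangles for APAP. The 5 Het libraries lie at 13.6 FPKM or above for Gm6472 and the 12 others at 3.27 FPKM or below, while Rps7 overlaps between the labels.

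Apart from Gm6472, few genes separated the label over both treatments. Of the 10767 genes, 24 (0.223%) had all 5 Het-labelled libraries outside the range of the other 12, 11 of them higher (0.102%) and 13 lower (0.121%). The gap was 4.14-fold for Gm6472 (lowest Het-labelled value over the highest other) and 1.16-fold for the next gene, Samd9l. Samd9l, Eif2ak2 and Ifi35, which are known as interferon-inducible genes, were among the 11 higher ones, though for Eif2ak2 the gap was 1.03-fold and for Ifi35 smaller still. Against the 7 WT libraries alone, 94 genes were higher (0.873%) and 75 lower (0.697%) in all 5 Het-labelled ones. Kidins220 (lower) and Tmem18 (higher) lie on chromosome 12 within 10 Mb of Nampt, 2 of the 24 (8.33%) against 42 of all 10767 genes (0.390%). Of the 169 genes that separated the Het-labelled from the 7 WT libraries, 3 lay there (1.78%). These genes were picked out after their values were seen.

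Beyond those 5, the genes named by smallest p over the 17 libraries did not pass there. All but Hes1 passed in the perfused livers. On the higher side, Fkbp5, a glucocorticoid-induced co-chaperone, was at 13.4 and 12.9 FPKM against 4.23, 4.37 and 4.33 FPKM in WT (1.41 ± 0.12, adjusted p = 0.00784). Tfrc, the transferrin receptor, was at 29.2 and 27.8 FPKM against 11.9, 9.67 and 10.8 FPKM (1.33 ± 0.13, adjusted p = 0.0118). Neither OE saline library reached the Het-labelled level of Tfrc (10.1 and 12.1 FPKM). The IG library, at 7.63 FPKM for Fkbp5 and 15.7 FPKM for Tfrc, lay above the 3 WT and below both Het-labelled livers. Crat, a carnitine acetyltransferase, Gk, the glycerol kinase, and Ldha, a lactate dehydrogenase subunit, rose by 1.22, 0.77 and 0.92. Skil, Hnrnpa1 and Tnfaip8l1 rose by 0.72 to 1.04, and Hes1, a target of Notch signalling, gave 1.12 with an adjusted p of 0.103. On the lower side, Camk1d, a calcium/calmodulin-dependent kinase, was at 5.58 and 6.37 FPKM against 22.0, 22.1 and 28.2 FPKM (-1.73 ± 0.12, adjusted p = 0.00532). Coq8a, needed to make coenzyme Q, was at 28.1 and 32.0 FPKM against 85.9, 107 and 95.3 FPKM (-1.65 ± 0.14, adjusted p = 0.00784). Ethe1, a sulfur dioxygenase of mitochondria, Aldoc, an aldolase, and Gstm6, a glutathione transferase, fell by 1.14, 1.13 and 1.21. Edem2 and Carhsp1 fell by 0.90 and 0.63. Gstm6 belongs to a family of close copies and is uncertain. OE saline 2 lay within or beyond the Het-labelled range for Crat, Gk, Hnrnpa1, Hes1, Ethe1, Aldoc, Gstm6 and Carhsp1. It did not reach that range for Fkbp5, Tfrc, Ldha, Skil, Tnfaip8l1, Camk1d, Coq8a and Edem2.

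Genes of fatty acid synthesis were lower in the Het-labelled livers. Of the 15 measured lipogenic genes, 9 fell and 0 rose, beside 1.51% and 1.25% of all genes tested. The list's median difference was -0.91 against 0.01 over all genes. In 11 the 2 groups did not overlap in the 5 libraries, all lower, beside 19.3% of all genes tested. Fasn, the fatty acid synthase, was at 37.8 and 38 FPKM in the Het-labelled livers and at 128, 91.7 and 227 FPKM in the WT livers. Both Het-labelled values were well below the lowest WT value (-1.49 ± 0.16, adjusted p = 0.0158). Acly, which makes cytosolic acetyl-CoA from citrate, was at 54.9 and 48.9 FPKM against 184, 144 and 260 FPKM, with no overlap (-1.63 ± 0.14, adjusted p = 0.00843). Acacb, the acetyl-CoA carboxylase at the mitochondrial surface, was at 3.27 and 2.18 FPKM against 15.4, 12.5 and 23.2 FPKM (-2.01 ± 0.19, adjusted p = 0.0106). Acaca, Gpam, which starts glycerolipid synthesis, and Me1, the malic enzyme that supplies NADPH, fell by 0.63, 0.91 and 1.13. The transcription factors of the pathway were lower too. Srebf1 was at 31.2 and 35.2 FPKM against 117, 81.0 and 123 FPKM (-1.53 ± 0.18, adjusted p = 0.0194), and Mlxipl, which codes for ChREBP, was at 22.1 and 17.5 FPKM against 36.4, 34.9 and 23.4 FPKM (-0.82 ± 0.13, adjusted p = 0.0427). For Mlxipl the gap to WT saline 3 was small. Thrsp (111 and 63.7 FPKM against 636, 402 and 911 FPKM) gave -2.58 ± 0.39 with an adjusted p of 0.0772. Scd1 (525 and 643 FPKM against 609, 692 and 1124 FPKM) overlapped between the groups. Acss2, which makes acetyl-CoA from acetate and was picked out after its values were seen, was at 33.4 and 26.8 FPKM against 161, 128 and 222 FPKM (-2.22 ± 0.16, adjusted p = 0.00544).

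WT levels of these genes also varied among themselves: the lipogenic list's mean was 0.37 above the WT mean in WT saline 3, 0.76 above in the IG library, and 0.10 and 0.26 below in WT saline 1 and 2. The Het-labelled livers were at -1.11 and -1.18, OE saline 1 at -0.65 and OE saline 2 at -1.76. The count of 9 fell to 3 without Het saline 1, Het saline 2 or WT saline 2 and to 0 without WT saline 1, with medians of -0.79 to -0.98. With all 5 libraries alone it was 5.

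Pklr, the liver pyruvate kinase and a known target of ChREBP, was at 23.4 and 26.3 FPKM in the Het-labelled livers and at 67.2, 61.0 and 108 FPKM in the WT livers (-1.33 ± 0.11, adjusted p = 0.00784). Its RefSeq promoter is shown because it was the only one among the 128 lower genes with a promoter sequence to hold the carbohydrate response element, searched on both strands of the 250 bases before the start as CACGNG and CNCGNG with 5 bases of any kind between them. The match is in capitals, in the plus strand of chr3:89136421-89136500 (GRCm38.p6), and 52 of 8210 tested genes with a promoter held one (0.633%).
Pklr: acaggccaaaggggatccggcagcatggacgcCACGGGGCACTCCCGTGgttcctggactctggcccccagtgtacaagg
The sterol regulatory element, searched as TCACNCCA, was in 14 of those 128 promoters (10.9%), 4 of 90 promoters of higher genes (4.44%) and 343 of the 8210 (4.18%). Gpam and Mlxipl were the lipogenic genes among the 14. The E-box, searched as CACGTG, which an exact carbohydrate element can overlap, was in 8 of the 128 (6.25%), 16 of the 90 (17.8%) and 842 of the 8210 (10.3%), so its share was larger among higher than among lower genes. With the elements described further on, 5 motifs were searched.

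Genes of fatty acid oxidation and other Ppara targets moved the other way. Of 25 measured, 12 rose and 0 fell, beside 1.25% and 1.51% of all genes tested, and the median was 0.54. In the 5 libraries 20 did not overlap upwards, beside 20.8% of all genes tested. Cyp4a10, an omega-hydroxylase of fatty acids, was at 1147 and 1094 FPKM in the Het-labelled livers and at 177, 141 and 175 FPKM in the WT livers (2.82 ± 0.13, adjusted p = 0.00323). Its close relative Cyp4a14 was at 1581 and 1269 FPKM against 309, 301 and 315 FPKM (2.21 ± 0.12, adjusted p = 0.00408). Both groups were tight and far apart, although Cyp4a10, Cyp4a14 and Cyp4a31 (which rose by 2.37) are close copies and their reads may be split wrongly. Ehhadh, the bifunctional enzyme of peroxisomal oxidation, was at 371 and 324 FPKM against 90.3, 86.5 and 111 FPKM (1.96 ± 0.10, adjusted p = 0.00344). Acot1, a cytosolic acyl-CoA thioesterase, was at 23.9 and 21 FPKM against 4.63, 5.52 and 5.24 FPKM (1.95 ± 0.13, adjusted p = 0.00532). The mitochondrial enzymes Acadm, Hadha and Hadhb rose by 0.73, 0.54 and 0.73, and the peroxisomal thiolase Acaa1b by 0.91. Vnn1, a pantetheinase, rose by 1.35. Fgf21, a hormone the liver secretes in fasting, was at 3.86 and 2.41 FPKM against 0.591, 0.877 and 0.0620 FPKM (1.24 ± 0.22, adjusted p = 0.0484). Ppara itself (65.1 and 56.4 FPKM against 41.7, 48.0 and 58.4 FPKM) overlapped, and Cpt1a, the carnitine transferase that admits fatty acids to mitochondria, gave 0.43 with an adjusted p of 0.103. The Ppara direct repeat, searched as a pair of AGGTCA with 1 base of any kind between them, was in 0 of the 90 promoters of higher genes and in 3 of 8210.

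The other saline libraries split on this list. OE saline 2 had 9 of the 12 genes nearer the Het mean than the WT mean, OE saline 1, of the same lane as the Het-labelled livers, had 1, and WT saline 3 and the IG library had 0. The count of 12 fell to 5 without Het saline 1, Het saline 2 or WT saline 2 and to 2 without WT saline 1, with medians of 0.53 to 0.61, and Cyp4a10 and Ehhadh passed in each of these fits.

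Interferon-stimulated genes were higher in the Het-labelled livers, whose list means were 0.78 and 0.89 above the WT mean, with -0.28 to 0.20 in the other saline libraries. Of 20 measured, 10 rose and 0 fell, beside 1.25% and 1.51% of all genes tested, and the median was 0.84. In the 5 libraries 19 did not overlap upwards, beside 20.8% of all genes tested. Ifit1, which binds foreign RNA, was at 10.3 and 11.5 FPKM in the Het-labelled livers and at 2.53, 2.31 and 2.84 FPKM in the WT livers (1.80 ± 0.13, adjusted p = 0.00544). Isg15, a ubiquitin-like protein, was at 8.03 and 9.59 FPKM against 2.77, 1.88 and 3.37 FPKM (1.57 ± 0.18, adjusted p = 0.0180). Rsad2, the antiviral protein viperin, was at 5.12 and 4.99 FPKM against 1.77, 1.44 and 2.20 FPKM (1.22 ± 0.14, adjusted p = 0.0180). In each of the 3, both Het-labelled livers were above every other saline library, the IG and OE ones included. Usp18, which removes Isg15 from its targets, was at 13.1 and 14.4 FPKM against 5.58, 3.35 and 5.0 FPKM (1.46 ± 0.21, adjusted p = 0.0317). Irf9, a transcription factor that carries the interferon signal, was at 19.9 and 21.2 FPKM against 11.8, 10.7 and 10.8 FPKM (0.81 ± 0.11, adjusted p = 0.0297). Rtp4, Zbp1, Ifi27 and Ifi44 were also among the 10. Of these 10 genes, WT saline 3, the IG library and OE saline 2 had 0 nearer the Het mean, and OE saline 1, of the same lane, had 2. The count of 10 fell to 3 without Het saline 1, to 1 without Het saline 2 and to 0 without either WT saline 1 or WT saline 2, with medians of 0.73 to 0.93. With all 5 libraries alone 12 passed.

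The promoters of 3 of these genes are shown because the interferon-stimulated response element recurs in them. It was searched as a pair of GAAA with 2 bases of any kind between them, on both strands of the 250 bases before the RefSeq start (GRCm38.p6), and the matches, which overlap each other in Isg15, are in capitals. The stretches are chr19:34640759-34640838 (plus strand) for Ifit1, chr4:156200846-156200925 (minus strand) for Isg15 and chr12:26456528-26456607 (minus strand) for Rsad2.
Ifit1: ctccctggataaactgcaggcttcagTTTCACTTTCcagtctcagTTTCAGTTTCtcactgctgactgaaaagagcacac
Isg15: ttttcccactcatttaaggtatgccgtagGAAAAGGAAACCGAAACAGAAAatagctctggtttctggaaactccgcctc
Rsad2: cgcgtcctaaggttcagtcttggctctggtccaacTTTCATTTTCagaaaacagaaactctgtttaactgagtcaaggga
The element was in 13 of the 90 promoters of higher genes (14.4%), 3 of the 128 of lower genes (2.34%) and 269 of 8210 tested (3.28%). In the interferon list 7 of 14 members with a promoter held it. A match describes these letters and does not show that a factor binds there.

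Some protein-folding genes passed, beside 1.25% of all genes tested that rose and 1.51% that fell. Of 14 heat shock genes, 3 rose (Hspb1, Hspe1 and Dnaja1), 0 fell, and the median was 0.55. The count was 1 without WT saline 2 and 0 without Het saline 1, Het saline 2 or WT saline 1. The list's mean above WT was 0.38 and 0.58 in the Het-labelled livers, 0.39 in the IG library, -0.75 in OE saline 1 and 1.90 in OE saline 2, so the IG library was level with Het saline 1. Hspb1, a small heat shock protein, was at 41.4 and 47.9 FPKM against 12.5, 18.8 and 19.3 FPKM (1.48 ± 0.19, adjusted p = 0.0266), at 7.42 FPKM in OE saline 1 and at 97.4 FPKM in OE saline 2. Hsp90aa1 (231 and 283 FPKM against 80.8, 133 and 87.1 FPKM) was higher without overlap, as were 20.8% of all genes tested. Its adjusted p was 0.0857 in limma. Among 18 genes of the integrated stress response and of endoplasmic reticulum stress, Creld2 and Fgf21 rose and Ppp1r15a, a phosphatase subunit that restores translation, fell, with a median of 0.36. Creld2, a chaperone of that compartment, was at 55.6 and 78.9 FPKM against 25.6, 31.7 and 22.4 FPKM (1.19 ± 0.19, adjusted p = 0.0427).

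The NAD genes did not move together. Of 17 genes of NAD synthesis and salvage, 1 rose and 1 fell, beside 1.25% and 1.51% of all genes tested, and the median was 0.03. Nmrk1, which makes nicotinamide mononucleotide from nicotinamide riboside, was at 19.9 and 19.0 FPKM against 12.0, 9.39 and 12.8 FPKM (0.82 ± 0.14, adjusted p = 0.0460). Both Het-labelled livers were above every other saline library, with 14.1 FPKM in the IG library and 9.55 and 9.36 FPKM in OE saline 1 and 2. Haao, an enzyme of the route from tryptophan, was at 178 and 167 FPKM against 303, 274 and 311 FPKM (-0.74 ± 0.10, adjusted p = 0.0247). Qprt, a later enzyme of that route, was at 43.6 and 39.5 FPKM against 69.1, 56.0 and 66.4 FPKM. It was lower without overlap, as were 19.3% of all genes tested, and had an adjusted p of 0.0850 in limma. Of 12 NAD-consuming enzymes, 1 rose and 0 fell, beside the same shares of all genes that passed. The one that rose was Parp9, at 33.8 and 37.2 FPKM against 22.2, 21.6 and 21.4 FPKM (0.67 ± 0.10, adjusted p = 0.0365). Parp9 is also known as an interferon-inducible gene. Sirt5, a mitochondrial desuccinylase, was at 7.16 and 6.43 FPKM against 12.3, 9.39 and 11.8 FPKM, with an adjusted p of 0.117.

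Other lists each held 4 or fewer genes that passed, while 2.76% of all genes tested did. Of 19 clock genes, 1 rose and 1 fell. The one that fell was Nr1d1, the repressor REV-ERB alpha (2.29 and 2.69 FPKM against 7.47, 6.63 and 6.43 FPKM, -1.21 ± 0.14, adjusted p = 0.0180), and the hour at which the mice were killed is not given in the sources used here. Of 21 genes of cholesterol synthesis, 2 fell, Nsdhl and Fdps (by 1.25 and 1.13), and the list's median was 0.01. Of 14 iron genes, Tfrc and Hamp rose. Hamp, the hormone hepcidin, was at 1007 and 1191 FPKM against 543, 560 and 453 FPKM (0.99 ± 0.11, adjusted p = 0.0158), but at 132 FPKM in the IG library, so WT livers differed among themselves. Of 19 acute phase genes, Saa1, Orm1 and Itih4 fell and Hamp, which is on both lists, rose. Saa1 was at 27.8 and 25.1 FPKM against 78.0, 105 and 35.5 FPKM, and Saa1 has close copies. Of 24 genes of APAP conjugation and glutathione, Gss, the glutathione synthetase, rose by 0.84 and Gstm3 fell by 1.55. Of 18 xenobiotic P450 genes and their regulators, Nr1i3, the receptor CAR, rose by 1.29 and Cyp2c55 fell by 1.42. In the lists of gluconeogenesis, bile acids and Nrf2 targets, 1 gene each fell, Got1 by 1.47, Abcb11, the bile salt pump, by 0.92 and Ces2c by 1.60. Of the 20 genes each of mitochondrial respiration and of the ribosome, 0 passed in limma, with medians of -0.08 and -0.07. Over 17 libraries, 0 of these genes had an unadjusted p under 0.05. In the 5 libraries 8 of each list were lower without overlap, beside 19.3% of all genes tested. In the same way 0 and 1 were higher, beside 20.8% of all genes tested. The zonal and sex-biased lists held 14 pericentral, 15 periportal, 18 male-biased and 3 female-biased genes. Among them, Apoa4, an apolipoprotein of lipid export, and Fmo2, a flavin monooxygenase, rose by 1.10 and 1.41. Elovl3, a fatty acid elongase, Rgn, Gls2, the liver glutaminase, and C8a fell by 2.15, 0.59, 0.65 and 0.61. Mt1, a metallothionein, rose by 1.02, and Junb, an immediate early gene, fell by 0.83. None of the 10 p53 targets, 13 cell cycle genes and 12 growth hormone genes passed in limma. Over 17 libraries, 2 of 10, 4 of 11 and 2 of 12 genes of these lists had an unadjusted p under 0.05, beside 1334 of all 10767 genes.

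In the fit of 17 libraries no gene of any list passed. An unadjusted p under 0.05 was reached by 11 of 15 lipogenic genes (all lower), 16 of 25 of fatty acid oxidation and 9 of 20 interferon genes (all higher). Over all 10767 genes, 625 were higher and 709 lower at such a p.

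Summed markers of blood and of adipose tissue and pancreas were lower in both Het-labelled livers than in all WT livers. The 10 erythroid markers of 11 found in the table summed to 48.1 and 74.5 FPKM in the Het-labelled livers, 97.1 to 189 FPKM in the perfused WT livers, 262 FPKM in WT saline 3 and 297 FPKM in the IG library. Alas2 was the only one of the 6 tested that passed (-0.58), beside 1.51% of all genes tested that fell. In bulk tissue fewer cells of a type and less RNA per cell cannot be told apart. Kupffer cell markers summed to 345 to 380 FPKM in the Het-labelled livers and 266 to 353 FPKM in WT, endothelial markers to 179 to 180 and 179 to 197 FPKM, and monocyte and macrophage markers to 92.9 to 148 and 82.5 to 113 FPKM. Stellate cell and matrix markers summed to 220 to 240 FPKM in the Het-labelled livers, 203 to 205 FPKM in the perfused WT livers and 223 FPKM in WT saline 3. On the log2 scale the mean over the 14 tested was -0.18 and -0.16 from the WT mean in the Het-labelled livers. It was -0.02, -0.17 and 0.20 in WT saline 1 to 3, so the sum did not reflect most members. Lymphocyte markers (7.02 to 11.7 and 8.61 to 13.7 FPKM) and cholangiocyte markers (20.3 to 31.2 and 24.7 to 33.3 FPKM) overlapped. Of 16 tested endothelial genes 1 rose and 0 fell, beside 1.25% and 1.51% of all genes tested, and the median was 0.01. The one that rose was Lyve1 (4.59 and 6.25 FPKM against 1.56, 2.28 and 2.06 FPKM, 1.14). In the neutrophil list, which summed to 2.70 to 4.36 and 2.78 to 3.93 FPKM, Camp, Ly6g, Mpo and Ngp were at 0 in all 5 libraries. Adipose and pancreas markers summed to 13.6 to 13.7 FPKM in the Het-labelled and 18.7 to 20.4 FPKM in the WT livers, with 13 of 20 at 0 in all 5 libraries. Only 2 of these markers were tested, with 1 higher and 1 lower estimate in the perfused livers. The lower one was Cela1, a pancreatic elastase also read in liver, which fell by 0.88. The part of these cells in the results was not tested.

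**Figure D3:**
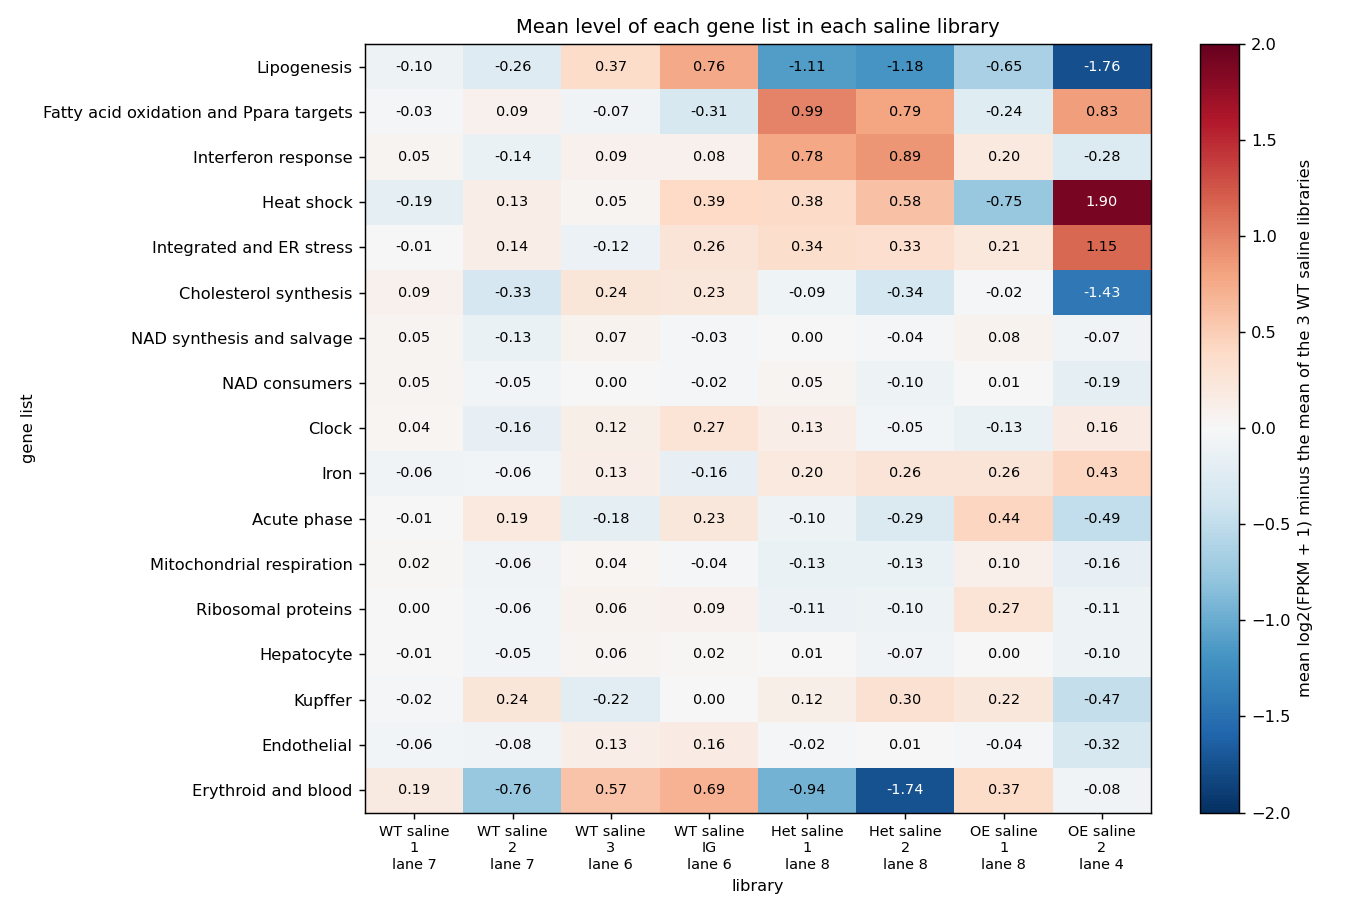
Mean difference in log2(FPKM + 1) from the mean of the 3 WT saline libraries (colour and printed value) for 17 gene lists (rows of the plot) in the 8 saline libraries (columns, with their sequencing lane). Lipogenesis is at -1.11 and -1.18, fatty acid oxidation at 0.99 and 0.79 and interferon response at 0.78 and 0.89 in the 2 Het libraries, and OE saline 2 shares the first pair of shifts but not the third.

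The saline libraries outside the 4 perfused livers were set against the 297 genes. WT saline 3 was nearer the Het mean than the perfused WT mean in 32 of them (10.8%) and the IG library in 33 (11.1%), compared with 37.4% and 39.2% of all genes tested. Both are of lane 6 and of 11 weeks, the age of the Het-labelled mice. OE saline 1, which shares lane 8, perfusion and age with the Het-labelled livers, was nearer them in 75 genes (25.3%, against 39.7% of all genes). OE saline 2, of lane 4, was nearer them in 231 genes (77.8%, against 61.7%). The Het and OE differences under saline rest on the same WT libraries. Genes that passed were picked for a wide gap between the Het and WT means for their spread, and all genes were not. Shares among the 297 genes and among all genes are thus not directly comparable, and the part of lane was not tested.

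**Figure D4:**
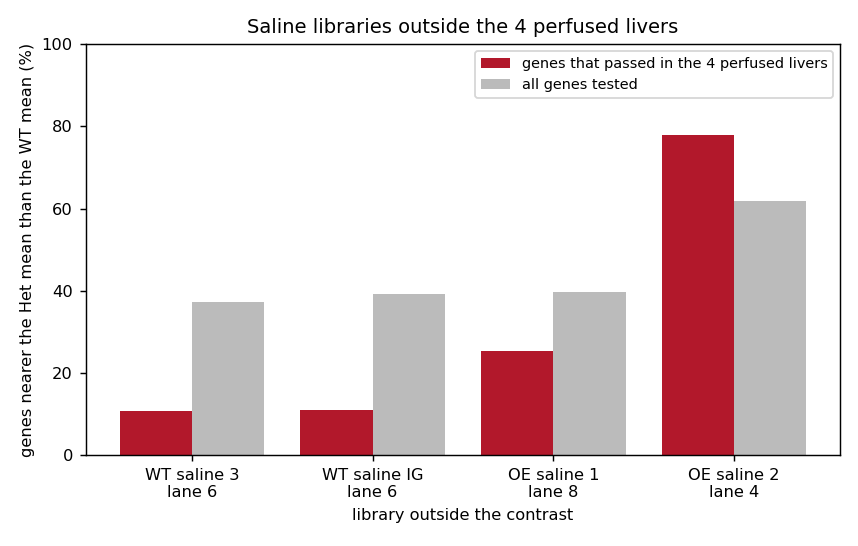
Share of genes (y axis, percent) whose level in a saline library outside the 4 perfused livers (x axis, with lane) was nearer the Het mean than the perfused WT mean, for the 297 genes that passed (red) and all genes tested (grey). The red bars run from 10.8% in WT saline 3 to 77.8% in OE saline 2.

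Het-labelled and WT livers met in a shared lane only after APAP, in lane 5, and those 5 libraries overlap with none of the saline ones. There 6 of 11332 genes passed (0.0529%): Gm6472 was higher, and Thrsp, Fabp5, Car5a, Rgn and Tmem86b were lower. The count was 733 without WT APAP 3, 34 without Het APAP 3 and 14 without Het APAP 2. Of the 297 genes, 287 were measured there and 211 had the same sign as under saline (73.5%, against 56.9% of all 10419 genes tested in both). Genes lower under saline had a median of -0.84 after APAP (157 genes), and genes higher under saline had a median of 0.03 (130 genes). Gm6472, Fabp5 and Rgn passed in both comparisons. Fabp5, a fatty acid binding protein, was at 10.7 and 6.64 FPKM against 43.4, 36.5 and 32.7 FPKM under saline, with no overlap (-2.11 ± 0.22, adjusted p = 0.0139), and the difference after APAP was -2.07 ± 0.21 (adjusted p = 0.0453). It was at 104 FPKM in the IG library, at 96.5 FPKM in OE saline 1 and at 1.11 FPKM in OE saline 2.

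The gene lists differed in how they did after APAP. All 15 lipogenic genes had lower estimates in the Het-labelled livers of lane 5, 14 with an unadjusted p under 0.05 and 1 of them passing (Thrsp, -3.16 ± 0.21, adjusted p = 0.00865), with a median of -1.37. Fasn, Acly and Srebf1 gave -2.20, -1.37 and -1.98 there, against -1.49, -1.63 and -1.53 under saline. Of the 20 interferon genes, 17 had higher estimates, 0 passed and 1 had an unadjusted p under 0.05, and the median over the 22 measured there was 0.66. Ifit1 gave 1.12 ± 0.61 and Isg15 1.38 ± 0.60, errors several times those under saline. Of the 25 fatty acid oxidation genes, 7 had higher and 18 lower estimates, 0 passed, 3 had an unadjusted p under 0.05, and the median over the 26 measured there was -0.22. Cyp4a10 and Ehhadh gave -0.10 and -0.87 there, against 2.82 and 1.96 under saline. Other lists lay to 1 side after APAP as well: the estimates of all 15 hepatocyte markers, 18 bile acid genes, 17 xenobiotic P450 genes and 21 cholesterol genes were lower in the Het-labelled livers, and those of all 20 ribosomal protein genes were higher. Their part in the list results was not tested. Over all 10419 genes, 4666 had higher and 5753 lower estimates after APAP. The difference between the saline and APAP contrasts, tested over 17 libraries, passed for 1 gene of 10767 (0.00929%), Gm22611. Of the fatty acid oxidation genes, 15 of 25 had an unadjusted p under 0.05 in that test, all with the larger value under saline, and 0 passed, compared with 890 of 10767 genes with such a p, 546 of them larger under saline. No lipogenic or interferon gene had an unadjusted p under 0.05 there.

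**Figure D5:**
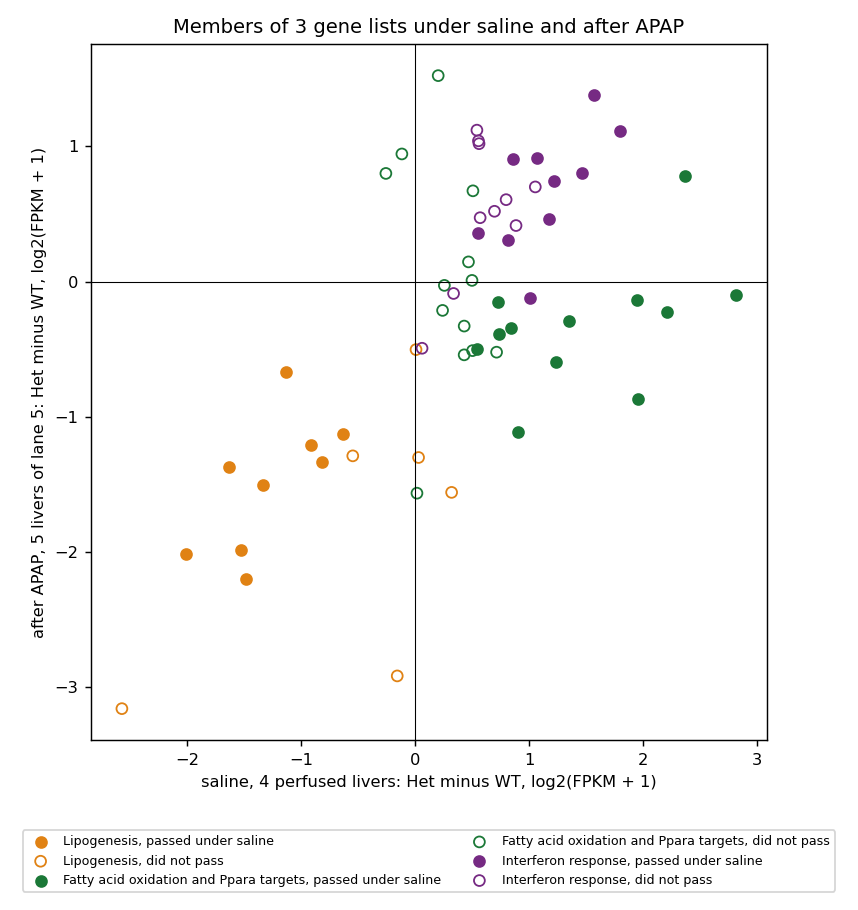
Het minus WT difference in log2(FPKM + 1) under saline in the 4 perfused livers (x axis) and after APAP in the 5 livers of lane 5 (y axis), 1 point per gene, for 3 gene lists, filled where the gene passed under saline. Lipogenic genes that passed lie low on both axes, interferon genes lie mostly high on both, and fatty acid oxidation genes that passed lie high on the x axis with values around 0 or below on the y axis, except Cyp4a31 at 0.78.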

How the data were processed

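Gene expression was measured by RNA sequencing with a stranded total RNA kit, per the labels' protocols. The authors deposited FPKM per gene and library, for which the submitters' processing notes name TopHat2 2.0.9, Cufflinks 2.2.1, Cuffdiff and GRCm38 p5. The unit is inferred from those tools and the values, and the annotation is not given in the sources used here. Read counts were not used here, so no counting interval is given and only relative depth was read from the steps between low values.

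Genes at 0 throughout a genotype and drug block with at least 10 FPKM elsewhere (108), and 6 within 100 kb of these with the same zeros, were treated as failed estimates and set aside, a rule chosen after seeing the data. Of these 114 genes, 30 were protein-coding, 27 of them at 0 in the WT or Het saline block. limma 3.58.1 (statmod 1.5.0, R 4.3.3) was fitted to log2(FPKM + 1) with a trended, robust prior and Benjamini-Hochberg adjustment at 0.05, for genes with a mean of 1 FPKM or more over the libraries compared. One fit took 8 label groups and a perfusion term over 17 libraries, and another took the 4 perfused livers alone, with 2 residual degrees of freedom. On simulated data, 100 genes were changed by 1 on the log2 scale and 100 by 2. The first fit recovered 59 and 88 of them among 10767 genes tested and the second 58 and 87 among 10763, with 10 and 4 false calls. The changed genes were drawn only from better expressed genes, and no lane or age difference was simulated. These rates therefore do not cover low genes, or false calls from a lane or age that follows the label.

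Named genes are Nampt, the up to 12 higher and 12 lower genes that passed over 17 libraries (at least 5 FPKM, no overlap) filled by smallest p, and up to 4 genes per list by smallest p. Some genes of that rule and of the lists are not reported here. Others, such as Acss2, Fabp5 and genes of the 297, were chosen after their values were seen, as was the counting of lists in the perfused livers. The members and the 38 lists were chosen with earlier results of these data known. Symbols and positions come from GENCODE M21 (GRCm38), and promoters from RefSeq. Gm6472 was aligned with BLAST 2.17.0 and Biopython 1.88. Alternatives tried were other pseudocounts, filters, normalisation, priors, sample weights and library subsets.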

Additional observations from a re-analysis of the deposited data

Results flagged for a closer look

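Gm22611, an annotated small nuclear RNA, was the only gene whose Het minus WT difference differed between saline and APAP in the test of that difference over 17 libraries (2.61 on the log2(FPKM + 1) scale, limma, adjusted p = 9.32e-05). It was at 4.58 and 5.68 FPKM in the Het-labelled saline livers and listed at 0 in the WT, IG and OE saline livers and in the Het-labelled and WT livers after APAP. Since zeros that fill a whole group occur in this table for genes that are abundant elsewhere, the value may be a failed estimate, which was not tested. The call was lost with a pseudocount of 0.1, and when genes needed an average of 1 FPKM in all 17 libraries or of 5 FPKM.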

How the results depend on the processing

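The count over 17 libraries (5) depended on which libraries gave the spread. It was 426 (195 higher, 231 lower) in the 5 libraries alone, 1682 (824 higher, 858 lower) with sample weights, 279 in the saline libraries apart from OE saline 2, and 14 when OE APAP 1 and OE saline 2 were left out (these exclusions were chosen after seeing the data). It was 2 with a pseudocount of 0.1 or no perfusion term, 8 with no filter or quantile normalisation, 3 with a mean of at least 5 FPKM, 9 with the IG library counted as WT, 36 with failed estimates kept and 2 to 4 with 1 library left out. The perfused count (297) was 21 with no filter, 57 with a plain prior and 13 to 97 with 1 liver left out. The count of differences between saline and APAP (1) was 0 with a pseudocount of 0.1 or either stricter filter, 2 with no filter, 404 with sample weights, 29 with failed estimates kept and 1 to 3 with 1 library left out. After APAP in lane 5 the count (6) was 10 and 11 with pseudocounts of 0.1 and 0.5, 0 with no filter, 15 with a mean of at least 5 FPKM, 11 with quantile normalisation, 2 with a plain prior and 6 to 733 with 1 library left out. Nampt passed with sample weights only (0.46, adjusted p = 0.0415). In the saline libraries apart from OE saline 2 the medians of lipogenesis, fatty acid oxidation and heat shock were -0.91, 0.54 and 0.55, against -1.27, 0.78 and 0.79 over 17 libraries. Of 1887 values of 95 named genes under these alternatives, 0 changed direction, 21 lost a call and 227 gained one. The cause of these changes was not tested. Many of the named genes were picked by their values in these same libraries, so a kept direction was largely set in advance. No paired analysis was possible because the replicate numbers follow the order of deposit. Depth limits low genes such as Fgf21.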
